A study of Rattus norvegicus with 8 samples.

Results

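The 10 core adipogenic transcription factors described here were Pparg, Cebpa, Cebpb, Cebpd, Klf5, Klf15, Ebf1, Stat5a, Stat5b and Zfp423. They were found by their symbols in both deposited tables, 1 row each, among 14295 genes listed for adipose-derived stem cells (ASC) and 18236 listed for differentiated adipocytes (AD). No rule on measured values was used to pick them, but they were chosen with earlier results of these data known. The study fed wild-type Wistar rats a high-fat sucrose diet (HFS) or a control diet (C) for 6 months, took ASC from the inguinal fat, and turned part of the cultures into AD. Differentiation used 3 days of induction medium with insulin (10.0 µg/mL), dexamethasone (5.0 µM) and the phosphodiesterase inhibitor IBMX (0.5 mM), then 7 days with insulin only. There were 8 RNA-seq libraries, and AD_HFS, AD_C, ASC_HFS and ASC_C had 2 each. All were primary cultures grown in medium with serum, and no source used here tells if paired libraries are from different rats or cultures, so each p measures only the spread between these libraries, which may be technical.

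Fat cell formation runs through a cascade of transcription factors. The early factors C/EBPβ and C/EBPδ, encoded by Cebpb and Cebpd, are induced by glucocorticoid and cAMP signals of the kind that the induction medium gives, and KLF5 acts just after them. They switch on Pparg, the nuclear receptor required for the fat cell programme, and Cebpa, and the products of these genes then keep each other active. ZFP423 and EBF1 mark and promote commitment of precursors, STAT5A and STAT5B carry signals of growth hormone and other cytokines to the nucleus and activate Pparg, and KLF15 is a glucocorticoid-induced factor of mature fat cells.

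Depth differed greatly between the stages. The reads recovered from the deposited values numbered 76083827 to 119555051 per AD library and 992618 to 7290961 per ASC library, ASC_HFS replicate 2 being the shallowest. The AD_HFS libraries stood apart by how alike they were. Over genes with more than 20 reads, the median chi-square statistic between the libraries of a pair was 3.12 times the value that sampling noise gives in AD_HFS and 41.0 times in AD_C, and it was 4.12 times in ASC_HFS and 9.78 times in ASC_C. This statistic grows with depth, so it does not compare the stages. The median absolute log2 gap between paired libraries, on deposited values, was 0.056 in AD_HFS and 0.218 in AD_C. It was 0.251 in ASC_HFS and 0.228 in ASC_C. The AD_HFS libraries differed by more than sampling noise, 6 of the 10 factors included, and were kept as 2 samples. With the AD_HFS libraries averaged into 1 sample, 1 degree of freedom was left. That fit therefore cannot show whether the 244 genes called in AD with both rest on the likeness of this pair. Summed over 9 adipocyte markers such as Adipoq and Plin1, levels were 22853 to 23243 CPM (reads scaled to a common library total) in AD_HFS, 18087 to 23460 in AD_C, 3176 to 4475 in ASC_HFS and 986 to 4165 in ASC_C. Of 12 mesenchymal progenitor markers, none was at 0 in any library, and 3 were called higher and 3 lower in ASC_HFS. Their summed level was 57934 and 62131 CPM in ASC_HFS, against 31617 and 36652 in ASC_C, and abundant genes weigh most in it. The median log2 difference of these markers in ASC was 0.60. In AD they summed to 19176 and 19496 CPM in AD_HFS, against 16069 and 28333 in AD_C. The defining marker Pdgfra had 579 ± 60.1 normalized counts (reads divided by the size factor of the library) in ASC_HFS and 2116 ± 454 in ASC_C, and Pi16 had 5266 ± 1376 in ASC_HFS and 794 ± 550 in ASC_C (SD, n = 2, limma-trend adjusted p = 0.00164 and 6.97e-04).

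**Figure D1:**
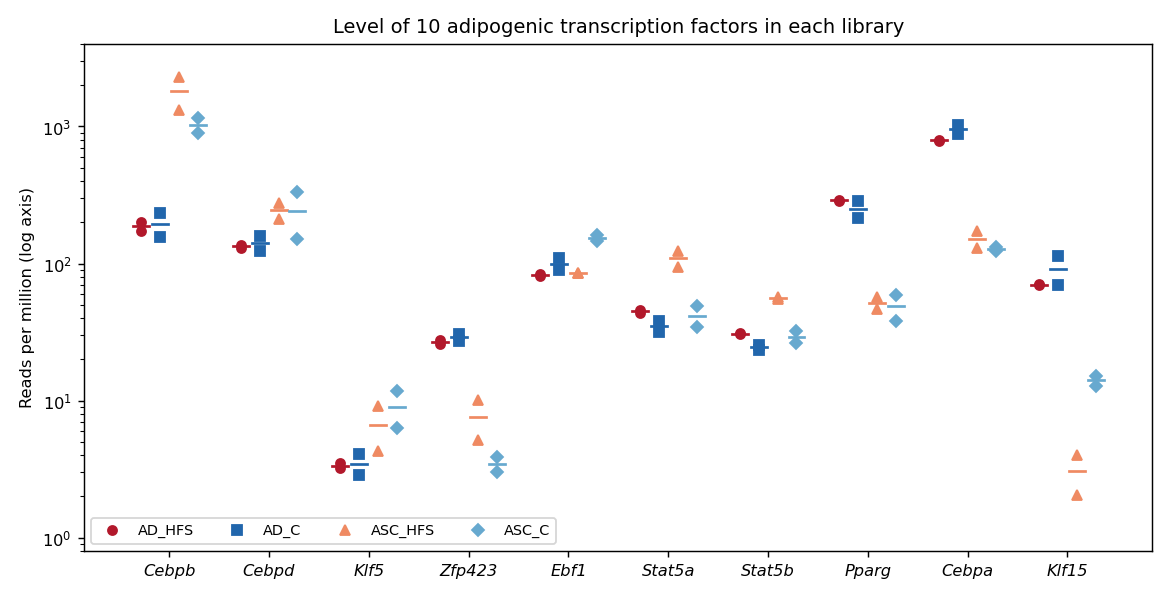
Level of each of the 10 transcription factors in CPM (reads scaled to the library total), on a log axis, with a point for each library and a bar at the mean of each group of 2. Pparg, Cebpa, Klf15 and Zfp423 lay higher in both AD groups than in either ASC group, and Cebpb lay lower.

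The first question was how the cascade looked in adipocytes against their precursors. Pparg, Cebpa, Klf15 and Zfp423 were higher in every AD library than in any ASC library, and Cebpb was lower. CPM is a gene's reads scaled to the library's total over the 14018 genes that both tables list, with no correction for transcript length, so they compare libraries and not genes. They were not tested, since stage, table and depth cannot be told apart. On the C diet, 4 of the 10 factors lay wholly above ASC_C in AD_C and 4 wholly below, where 31.4% and 38.9% of all genes did so. On the HFS diet 4 lay above and 6 below, against 47.9% and 32.8% of all genes.

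Pparg had 288 and 293 CPM in AD_HFS and 214 and 288 in AD_C, against 56.9 and 46.4 in ASC_HFS and 38.3 and 59.0 in ASC_C. The mean was 5.62 times higher in AD_HFS than in ASC_HFS and 5.15 times higher in AD_C than in ASC_C, and within a stage the libraries of both diets lay close together or overlapped. The order of the group means was AD_HFS, AD_C, ASC_HFS, ASC_C, but the means of AD_HFS and AD_C, at 291 ± 3.51 and 251 ± 52.4 (SD, n = 2), and those of ASC_HFS and ASC_C, at 51.7 ± 7.48 and 48.7 ± 14.6, differed by less than the larger SD of the pair. Over all 8 libraries, the named genes whose log2 level followed Pparg most closely, of 9133 with a mean of at least 10 CPM, were Rhbg, Aox4, Plin1, Pnpla3 and Mgst1, each with Pearson r of 0.996 or 0.995. These 8 points share stage, table and depth, so the values describe the split between stages.

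Pparg has alternative start sites, and the downstream one gives the PPARγ2 form that is typical of fat cells. The counts are per gene and do not separate the forms. The RefSeq table, on build GRCr8, holds 2 windows for Pparg, shown here as the 250 bases before each start on the plus strand to let the 2 starts be compared. The upstream one, at chr4:150096808-150097057, has 67.2% G and C, and the downstream one, at chr4:150154522-150154771, has 44.8%.
Pparg upstream start: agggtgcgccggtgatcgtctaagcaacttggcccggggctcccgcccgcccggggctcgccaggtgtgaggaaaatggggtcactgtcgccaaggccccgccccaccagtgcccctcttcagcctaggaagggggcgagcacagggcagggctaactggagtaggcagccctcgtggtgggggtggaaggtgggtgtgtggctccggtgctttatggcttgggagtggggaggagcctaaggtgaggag
Pparg downstream start: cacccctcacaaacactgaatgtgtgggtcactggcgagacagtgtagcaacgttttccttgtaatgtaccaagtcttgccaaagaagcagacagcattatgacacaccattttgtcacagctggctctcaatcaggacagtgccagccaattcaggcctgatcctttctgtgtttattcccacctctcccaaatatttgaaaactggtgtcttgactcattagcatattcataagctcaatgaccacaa

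Cebpa, the partner of Pparg in the late programme, had 803 and 790 CPM in AD_HFS and 1031 and 878 in AD_C, against 131 and 173 in ASC_HFS and 124 and 131 in ASC_C. Klf15 had 70.3 and 69.2 in AD_HFS and 113 and 70.1 in AD_C, against 2.05 and 4.03 in ASC_HFS and 12.9 and 15.2 in ASC_C. The AD mean of Klf15 was thus 22.9 times the ASC mean on the HFS diet and 6.53 times on the C diet. The first of these ratios rests on 12 and 4 reads in the ASC_HFS libraries. Zfp423, a factor of precursor commitment, had 27.7 and 25.9 in AD_HFS and 30.8 and 27.0 in AD_C, against 5.13 and 10.1 in ASC_HFS and 3.89 and 3.02 in ASC_C. Its AD libraries were all above its ASC libraries, 3.52 times higher in the mean on the HFS diet and 8.36 times on the C diet. Both ratios rest on few ASC reads, 30 and 10 in ASC_HFS and 13 and 22 in ASC_C.

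Cebpb ran the other way. It had 200 and 173 CPM in AD_HFS and 233 and 156 in AD_C, against 1311 and 2289 in ASC_HFS and 897 and 1159 in ASC_C, so that the ASC mean was 9.65 times the AD mean on the HFS diet and 5.29 times on the C diet. Klf5 was also lower in each AD library, with 3.22 and 3.48 in AD_HFS and 2.84 and 4.08 in AD_C, against 4.28 and 9.07 in ASC_HFS and 6.29 and 11.7 in ASC_C. Cebpd ranged from 123 to 158 over the AD libraries and from 151 to 335 over the ASC libraries, and its AD_C and ASC_C libraries overlapped.

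As with Klf15, Zfp423 and Cebpb above, the stage ratios of Ebf1, Stat5a and Stat5b were not the same on both diets. These ratios were not tested. The limma-trend test of the diet difference between stages, given below, called 0 of the 10 factors, and Ebf1 gave 0.34 in it (adjusted p = 0.367). Ebf1 had 81.4 and 84.3 CPM in AD_HFS and 109 and 90.0 in AD_C, against 84.6 and 84.7 in ASC_HFS and 147 and 162 in ASC_C. Its AD_HFS and ASC_HFS libraries were nearly level, and they overlapped when libraries were scaled to their upper quartile. Stat5a ranged from 31.6 to 45.9 and Stat5b from 23.6 to 31.1 over the AD libraries. In ASC they ranged from 34.4 to 124 and from 26.4 to 57.3, with the high values in ASC_HFS. The ASC mean of Stat5a was 2.44 times the AD mean on the HFS diet and 1.19 times on the C diet, and that of Stat5b was 1.83 times on the HFS diet and 1.19 times on the C diet. The AD_C and ASC_C libraries of Stat5a overlapped, and those of Stat5b overlapped when libraries were scaled to their upper quartile.

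The C/EBP genes exchanged places by stage. Of the summed reads of Cebpa, Cebpb and Cebpd, Cebpa took 71.4 ± 1.35% in AD_HFS and 74.0 ± 0.459% in AD_C, against 7.11 ± 1.11% in ASC_HFS and 9.14 ± 0.0413% in ASC_C (SD, n = 2). Cebpb took 16.7 ± 1.16% in AD_HFS and 14.9 ± 2.64% in AD_C, against 81.5 ± 2.91% in ASC_HFS and 73.3 ± 10.1% in ASC_C. The shares of Cebpa in AD and ASC libraries were far apart, whereas those of Cebpb in the ASC groups overlapped. The shares are of reads without correction for length, so they compare libraries and not the abundance of the genes.

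**Figure D2:**
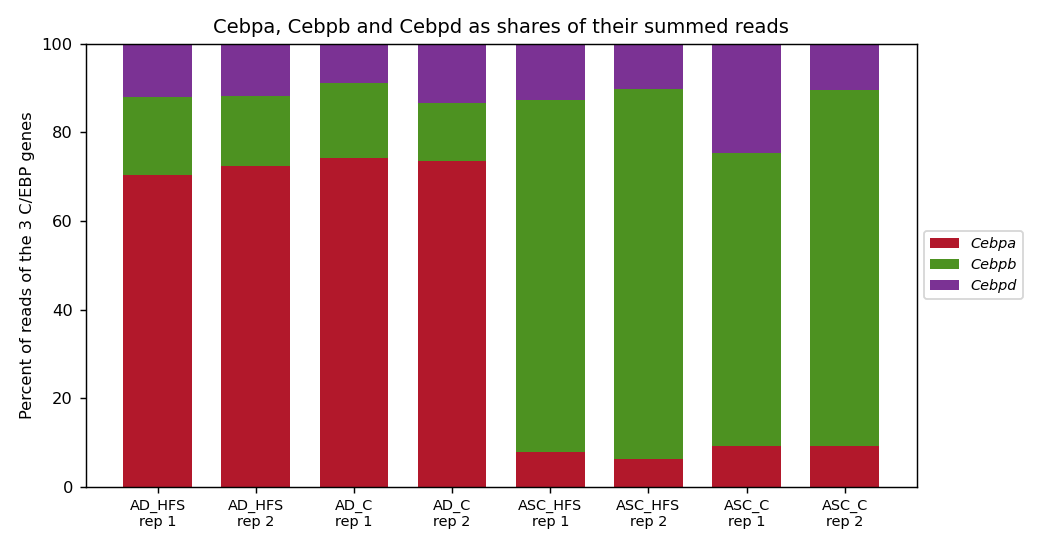
Percent of the summed reads of Cebpa, Cebpb and Cebpd that each gene took, as stacked bars, 1 per library. Cebpa took the largest share in all 4 AD libraries and Cebpb in all 4 ASC libraries.

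The second question was whether diet changed these factors in the undifferentiated cells. Stat5a and Stat5b rose and Klf15 fell in ASC_HFS, and the other 7 factors did not pass the test. The test was limma-trend on log2 of the deposited value plus 1, and a gene was called where its p, adjusted by Benjamini-Hochberg across the 14295 genes, was under 0.05. It called 3 of the 10 factors, 2 higher and 1 lower, while 19.1% of all genes were called, 9.41% higher and 9.7% lower. The libraries of the diets did not overlap for 7 of the 10, with 5 higher and 2 lower, and for 61% of all genes, 28.5% higher and 32.5% lower. By limma-voom on recovered reads 3 factors were called higher and 1 lower, where 22.3% of all genes were called, 12.1% higher and 10.3% lower. The calls depend on having all 4 libraries, and by limma-trend no call held without any 1 of them. Such a fit has 1 library in a group, so its counts are not set beside those above. By limma-trend the log2 difference was then 1.09 to 1.40 for Stat5a, 0.68 to 0.91 for Stat5b and -0.88 to -0.63 for Klf15. The median log2 difference was 0.32 over the factors and -0.04 over all genes. Normalized counts can be compared only within a stage.

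Stat5a (ENSRNOG00000019496) had 346 and 446 normalized counts in ASC_HFS, against 151 and 113 in ASC_C. Both HFS libraries were well above both C libraries, and the ratio of means was 3.01 (log2 difference 1.24 ± 0.25, SE, limma-trend adjusted p = 0.00449). Stat5b (ENSRNOG00000019075) had 209 and 199 in ASC_HFS, against 81.5 and 105 in ASC_C. Its ratio of means was 2.19 (log2 difference 0.80 ± 0.23, SE, limma-trend adjusted p = 0.0279). In RefSeq the genes are direct neighbours, with 0 protein-coding genes between them. They are close paralogs, so reads of sequence they share may have been dropped or assigned to either gene. Stat5a took 62.4% and 69.1% of the summed reads of both in ASC_HFS, against 64.9% and 51.6% in ASC_C. The 95% Wilson intervals were 59.1 to 65.5% and 62.0 to 75.4% in ASC_HFS and 58.9 to 70.6% and 47.2 to 56.1% in ASC_C, and they cover counting error only, so the balance between the genes did not separate the diets.

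Klf15 (ENSRNOG00000017808) had 7.48 and 14.5 normalized counts in ASC_HFS, against 39.8 and 49.8 in ASC_C. These come from 12 and 4 reads in ASC_HFS and from 43 and 111 reads in ASC_C. The floor of 3 reads equals 1.87 and 10.9 normalized counts in the ASC_HFS libraries, so the second of them was close to its floor. The C mean was 4.07 times the HFS mean (log2 difference -0.76 ± 0.22, SE, limma-trend adjusted p = 0.0267), and the log2 difference on the deposited scale is compressed at so few reads. With limma-voom on the recovered reads it was -2.35 ± 0.63 (SE, adjusted p = 0.00644).

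The 250 bases before the RefSeq start of each of these 3 genes, on build GRCr8, are shown because these are the factors that changed with diet in ASC. The windows lie at chr10:86285609-86285858 on the plus strand for Stat5a, chr10:86275953-86276202 on the minus strand for Stat5b and chr4:124522765-124523014 on the plus strand for Klf15. Both strands were searched for a STAT site (TTCNNNGAA), a C/EBP palindrome (TTGCGCAA), a cAMP response element (TGACGTCA), a KLF box (CCACACCC) and an E-box (CACGTG), which are held by 7.67%, 0.140%, 1.59%, 2.84% and 5.59% of the 33469 windows of that length. None of these motifs overlaps another here. Capitals mark the only match in the 9 windows that 8 of the 10 factors have, an E-box that starts 101 bases before the Klf15 start. A match of letters is a description, and the other windows merely do not hold these letters.
Stat5a: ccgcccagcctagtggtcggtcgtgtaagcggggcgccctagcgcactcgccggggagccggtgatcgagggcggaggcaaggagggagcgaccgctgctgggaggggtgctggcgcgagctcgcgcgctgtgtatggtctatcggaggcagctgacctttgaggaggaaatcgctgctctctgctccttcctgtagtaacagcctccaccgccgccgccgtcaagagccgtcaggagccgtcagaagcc
Stat5b: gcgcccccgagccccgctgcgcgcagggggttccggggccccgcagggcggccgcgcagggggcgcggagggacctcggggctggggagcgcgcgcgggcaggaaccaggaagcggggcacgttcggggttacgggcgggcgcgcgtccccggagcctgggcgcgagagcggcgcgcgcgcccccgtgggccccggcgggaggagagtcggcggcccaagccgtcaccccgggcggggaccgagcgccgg
Klf15: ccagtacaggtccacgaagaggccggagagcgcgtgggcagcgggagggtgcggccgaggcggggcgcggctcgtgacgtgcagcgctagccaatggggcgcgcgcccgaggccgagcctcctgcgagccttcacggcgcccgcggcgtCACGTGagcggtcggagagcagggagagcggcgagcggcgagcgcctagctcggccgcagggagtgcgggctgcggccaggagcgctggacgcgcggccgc

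Among the early factors, Cebpb (ENSRNOG00000057347) had 4782 and 8235 normalized counts in ASC_HFS, against 2773 and 3788 in ASC_C. The diets did not overlap, but the HFS libraries differed widely from each other, and the log2 difference of 0.94 (95% interval 0.12 to 1.76) did not pass (limma-trend adjusted p = 0.101). It did pass with limma-voom on recovered reads (log2 difference 0.99, adjusted p = 0.0272) and with all 8 libraries in 1 limma-trend fit (adjusted p = 0.0470). The latter fit takes its spread from the AD libraries too, and its SE was 0.31 in place of 0.38 for the same log2 difference. Cebpd had 765 and 1001 in ASC_HFS, against 1035 and 492 in ASC_C, and Klf5 had 15.6 and 32.6 in ASC_HFS, against 19.5 and 38.1 in ASC_C, so both overlapped between the diets (limma-trend adjusted p = 0.620 and 0.798). For Klf5, with 25 and 9 reads in ASC_HFS and 21 and 85 in ASC_C, the log2 difference was -0.10 on the deposited scale and -0.69 by limma-voom (adjusted p = 0.386).

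Of the commitment factors, Ebf1 had 309 and 305 normalized counts in ASC_HFS, against 454 and 531 in ASC_C. The groups were apart, with a log2 difference of -0.58 (95% interval -1.12 to -0.04), which did not pass after adjustment (limma-trend adjusted p = 0.123). It did pass with all 8 libraries in 1 limma-trend fit (adjusted p = 0.0318). The log2 difference was the same there, and the SE was 0.17 in place of 0.25, with the spread taken from the AD libraries too. Zfp423 had 18.7 and 36.3 in ASC_HFS, against 12.04 and 9.86 in ASC_C, from 30 and 10 reads in ASC_HFS and 13 and 22 reads in ASC_C. The groups were apart, with a ratio of means of 2.51, but the difference did not pass. The log2 difference was 0.42 (95% interval -0.06 to 0.90, limma-trend adjusted p = 0.204) on the deposited scale, which is compressed at so few reads, and 1.00 (interval -0.23 to 2.23, adjusted p = 0.241) by limma-voom on recovered reads.

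The late factors did not pass either. Pparg had 208 and 167 normalized counts in ASC_HFS, against 119 and 193 in ASC_C, with overlapping libraries. Its log2 difference of 0.21 had a 95% interval of -0.33 to 0.76, which leaves room for a change in either direction. Cebpa had 476 and 624 in ASC_HFS, against 384 and 429 in ASC_C, with a log2 difference of 0.37 and an interval of -0.20 to 0.94.

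**Figure D3:**
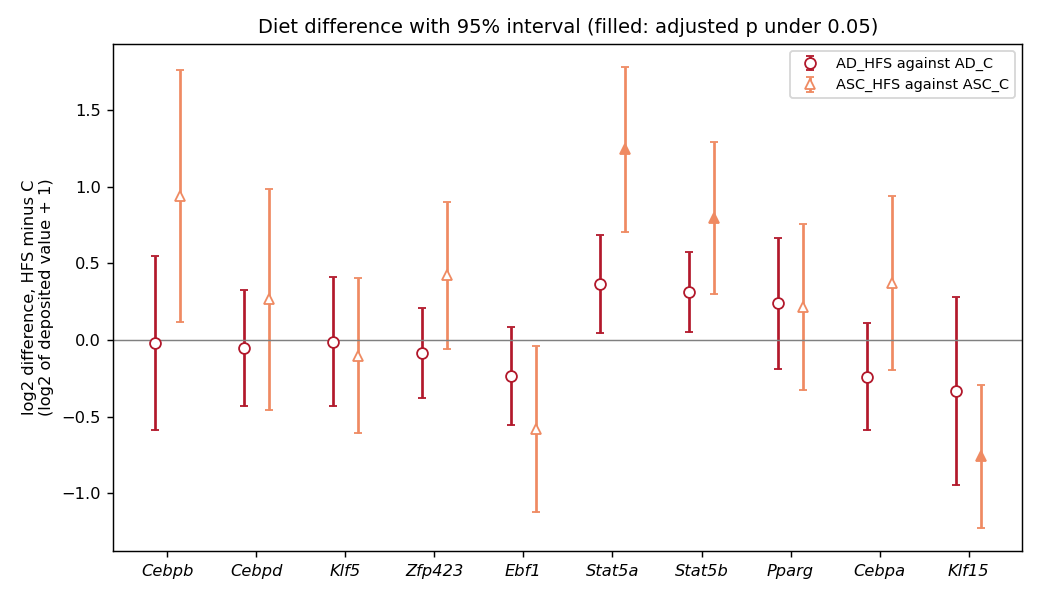
Difference between HFS and C libraries for each factor, as log2 of the deposited value plus 1, with its 95% interval from limma-trend, in AD (circles) and ASC (triangles). Filled points passed the test: Stat5a and Stat5b above 0 and Klf15 below 0, all in ASC, while the 10 AD points are open.

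The third question was whether these diet differences were present after differentiation. In AD, 0 of the 10 factors were called, while 1.34% of 18236 genes were called, and limma-voom on recovered reads also called 0 of the 10, where 0.823% of all genes were called. At an unadjusted limma-trend p under 0.05 were 2 of the 10, Stat5a and Stat5b, against 13.9% of all genes. The libraries of the diets did not overlap for 5 of the 10, with 3 higher and 2 lower, and for 47.7% of all genes, 24.2% higher and 23.5% lower.

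Stat5a had 4467 and 4242 normalized counts in AD_HFS, against 3040 and 3657 in AD_C, a ratio of means of 1.30 (log2 difference 0.36, 95% interval 0.05 to 0.68, limma-trend adjusted p = 0.300). Stat5b had 3025 and 2944 in AD_HFS, against 2456 and 2263 in AD_C, a ratio of 1.26 (log2 difference 0.32, interval 0.05 to 0.58, adjusted p = 0.273 by limma-trend). Both genes were thus higher in each HFS library at this stage too, with smaller ratios than in ASC and without passing the test.

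Pparg had 28007 and 28396 normalized counts in AD_HFS, against 20559 and 27639 in AD_C (log2 difference 0.24, 95% interval -0.19 to 0.67). Cebpa had 78082 and 76572 in AD_HFS, against 99162 and 84251 in AD_C (log2 difference -0.24, interval -0.59 to 0.11). The pair therefore lay on opposite sides of 0, both without passing the test. Klf15 had 6839 and 6703 in AD_HFS, against 10906 and 6734 in AD_C, and only AD_C replicate 1 stood apart (log2 difference -0.33, interval -0.95 to 0.28). Ebf1 had 7916 and 8168 in AD_HFS, against 10470 and 8645 in AD_C (log2 difference -0.24, interval -0.56 to 0.08). Cebpb, Cebpd, Klf5 and Zfp423 overlapped between the diets, with log2 differences from -0.09 to -0.01.

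The difference between the stages was tested itself, in 1 limma-trend fit of all 8 libraries and the 14018 shared genes, as the diet difference in AD minus that in ASC. It called 0 of the 10 factors, while 12.5% of all genes were called, and 1 of the 10, Stat5a, had an unadjusted p under 0.05, against 30.2% of all genes. Stat5a came nearest, with -0.88 (95% interval -1.47 to -0.29, limma-trend adjusted p = 0.0577). The deposited scale is compressed to a different degree in each table, and with limma-voom on recovered reads Stat5a gave -1.17 and adjusted p = 0.0481, the only factor called by it, where 9.26% of all genes were called, 3.97% lower. For Klf15 the difference was 0.43 (adjusted p = 0.398) by limma-trend and 1.90 (adjusted p = 0.140) by limma-voom. Stat5b gave -0.48 (adjusted p = 0.184) and Cebpa, whose HFS libraries were above C in ASC and below C in AD, gave -0.61 (adjusted p = 0.178), both by limma-trend. For these 3 genes a difference between the stages was not shown.

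Genes that act with the 10 factors were described from lists that were written with earlier results of these data known. Their counts in ASC stand beside the 9.41% of all genes called higher and the 9.7% called lower, and those in AD beside 1.34% called in either direction. Of 9 measured STAT5 target genes, 5 were called higher and 1 lower in ASC_HFS, with a median log2 difference of 0.82, against -0.04 over all genes. The feedback inhibitors Socs1 and Cish had 217 ± 46.4 and 289 ± 44.1 normalized counts in ASC_HFS, against 38.6 ± 13.9 and 65.0 ± 17.2 in ASC_C (SD, n = 2, limma-trend adjusted p = 7.80e-04 and 0.00101). The kinase gene Pim1 rose 3.44-fold, and Ccnd1, which encodes cyclin D1, had 172 ± 68.5 in ASC_HFS and 380 ± 21.6 in ASC_C (adjusted p = 0.00220 and 0.0241 by limma-trend). Socs1 and Cish are also induced by other cytokine-driven STAT factors. In AD, 0 of 9 were called (median log2 difference -0.05).

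Of 9 measured receptors and kinases upstream of STAT5, 3 were called higher in ASC_HFS. Csf2rb, the shared chain of the GM-CSF, IL-3 and IL-5 receptors, had 668 ± 34.3 normalized counts in ASC_HFS and 157 ± 5.73 in ASC_C. Il2rg, the common cytokine receptor chain, rose 2.49-fold and Insr, the insulin receptor gene, 4.52-fold. In AD, 1 of 10 was called, the GM-CSF receptor gene Csf2ra, at 5391 ± 197 in AD_HFS and 2753 ± 165 in AD_C (limma-trend adjusted p = 0.0400). Csf2rb, Csf2ra and Il2rg are genes of blood cell lineages as well.

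Markers of some other cell types also differed between the diets. Of 19 measured macrophage markers, 14 were called higher and 0 lower in ASC_HFS and 13 higher and 0 lower in AD_HFS. Their summed level was 4025 and 4028 CPM in AD_HFS, against 463 and 863 in AD_C, and 8068 and 8721 in ASC_HFS, against 2040 and 2337 in ASC_C, with no marker at 0 in any library. Of 12 epithelial and mammary markers, 8 were called higher in ASC_HFS and 0 in AD_HFS. They summed to 1485 and 1655 in ASC_HFS, against 121 and 165 in ASC_C, and to 8.44 and 8.14 in AD_HFS, against 10.4 and 6.60 in AD_C, with 1 marker at 0 in ASC_C replicate 2 and 1 at 0 in AD_C replicate 2. Of 12 endothelial markers, 9 were called higher in ASC_HFS, with sums of 1982 and 1817 in ASC_HFS, against 519 and 1048 in ASC_C. Macrophages express Cebpa, Cebpb and Stat5a, and the mammary epithelium uses STAT5A. The part of these cells in the differences of Stat5a, Stat5b, Cebpb and Klf15 was not tested, and in bulk RNA fewer cells of a type and less RNA per cell cannot be told apart.

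**Figure D4:**
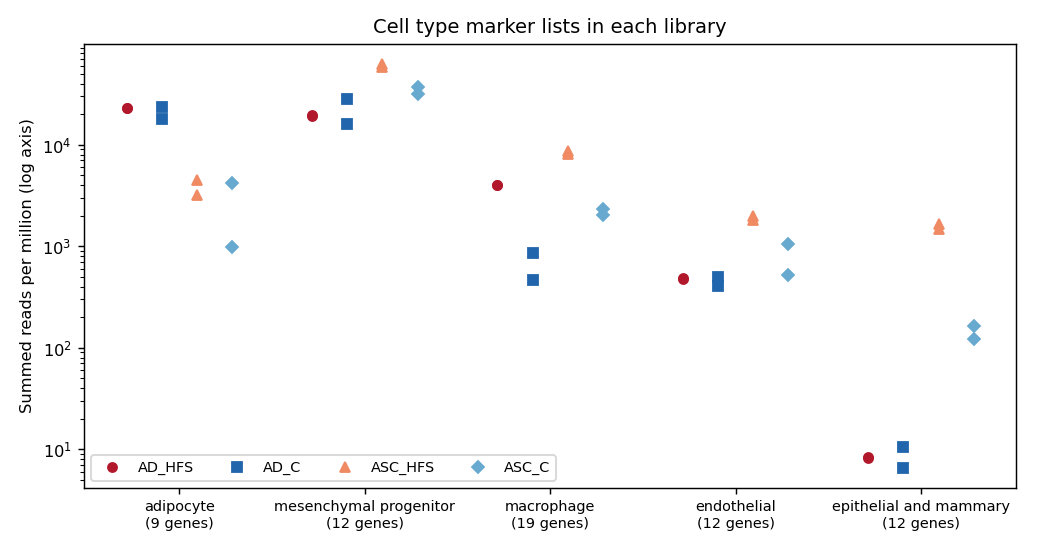
Summed CPM of 5 lists of cell type markers, on a log axis, 1 point per library. Macrophage markers lay higher in HFS than in C libraries at both stages, and epithelial and mammary markers lay higher in ASC_HFS than in ASC_C and under 11 in all AD libraries.

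Target genes and partners of PPARγ and C/EBPα were counted in the same way. Of 19 measured adipocyte target genes, 8 were called higher and 0 lower in ASC_HFS, with a median log2 difference of 0.71. Pck1, an enzyme of glyceroneogenesis, had 140 ± 33.4 normalized counts in ASC_HFS and 5.63 ± 5.35 in ASC_C, and Angptl4, an inhibitor of lipoprotein lipase, had 970 ± 253 in ASC_HFS and 266 ± 30.3 in ASC_C (SD, n = 2, limma-trend adjusted p = 1.34e-04 and 0.00165). The ASC_C level of Pck1 was near the floor of 3 reads, which equals 2.78 and 1.34 normalized counts in the ASC_C libraries. Lep and Aqp7, for leptin and a glycerol channel, rose 4.28-fold and 5.13-fold. The adipocyte marker sum of ASC_C replicate 2, 4165 CPM, was within the range of the ASC_HFS libraries, whereas that of ASC_C replicate 1 was 986. In AD, 0 of 19 were called.

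Of 12 partners and coactivators, 1 was called in ASC_HFS, Ncoa3, a nuclear receptor coactivator, at 77.0 ± 3.94 in ASC_HFS and 18.6 ± 2.79 in ASC_C (limma-trend adjusted p = 0.00834). Of 18 other positive regulators of adipogenesis, 4 were called higher and 2 lower in ASC_HFS. Nr4a1, Egr2 and Klf9, which encode factors induced early after stimuli or by glucocorticoid, rose 3.88-fold, 3.21-fold and 2.70-fold. Ebf3, a paralog of Ebf1, had 46.6 ± 0.705 in ASC_HFS and 142 ± 3.27 in ASC_C (limma-trend adjusted p = 0.00831). Of 25 inhibitors, 6 were called higher and 0 lower, among them Irf4, Smad3, Bhlhe40 and Sirt1, at 5.27-fold, 3.88-fold, 2.58-fold and 2.69-fold. Irf4 is also a gene of macrophages and lymphocytes. In AD, 0 of the members of these 3 lists were called. The smallest p was that of Ncoa3, at 2979 ± 1.42 in AD_HFS and 1942 ± 26.0 in AD_C (limma-trend adjusted p = 0.0812). The precursor gene Dlk1 followed, at 633 ± 57.8 in AD_HFS and 1095 ± 30.7 in AD_C (limma-trend adjusted p = 0.109).

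Klf15 is a target of the glucocorticoid receptor. Of 9 other measured targets of that receptor, 3 were called higher and 1 lower in ASC_HFS by limma-trend, and 3 higher and 2 lower by limma-voom, with a median log2 difference of 0.42 by limma-trend. Their summed level was 1771 and 1733 CPM in ASC_HFS, against 2692 and 1875 in ASC_C, so it was lower in both HFS libraries. The sum thus ran against the positive median, and abundant genes weigh most in it. Errfi1, an inhibitor of growth factor receptors, had 1518 ± 612 in ASC_HFS and 340 ± 48.4 in ASC_C. Sgk1, a kinase gene, rose 3.77-fold, and Pdk4, a brake on pyruvate oxidation, 2.37-fold. Cdkn1c, a cell cycle inhibitor gene, had 85.7 ± 8.41 in ASC_HFS and 212 ± 41.8 in ASC_C (limma-trend adjusted p = 0.0169). In AD, 0 of 9 were called.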

How the data were processed

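RNA-seq was done with 50 bp paired-end reads per the labels, which give both polyA RNA and an rRNA depletion kit. Per the submitters' processing notes, FastQC, STAR, featureCounts and DESeq2 were used on mRatBN7.2 and rn7, and versions and settings are not given in the sources used here. The deposited values, 1 table for ASC and 1 for AD, are a signal that the authors scaled within each table: size-factor normalized, variance-stabilized counts raised back from log2, with 1 lowest value (34.7 in ASC, 107 in AD) for 0 reads. Subtracting that value, squaring and dividing by the deposited value gave normalized counts, and multiplying these by the size factor of the library returned whole reads for 100% of values (tolerance 1e-06).

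Python 3.11.15, numpy 2.4.6, pandas 2.3.3 and scipy 1.17.1 recovered the reads, and figures used matplotlib 3.10.9. Tests used limma 3.58.1 in R 4.3.3, two-sided, on log2(value + 1), within each table, and were tested on simulated data. A minimum mean value of 10 removed no gene, since each deposited value is above it. The interaction used genes in both tables. Stages were compared without a test. The members, lists and alternatives were chosen with earlier results of these data known. All 10 members are named, plus, per list and table, up to 4 called genes with the smallest adjusted p, or the 2 with the smallest p where under 2 were called. From these, the text takes those that bear on the 10. List members outside a table were not analysed here. The lists of mesenchymal progenitor, neutrophil and mast cell, lymphoid, and smooth muscle and pericyte markers gave 3, 5, 0 and 2 genes higher and 3, 1, 1 and 2 lower in ASC_HFS, and 0 in AD. Endothelial markers gave 1 higher in AD_HFS, and 4 of 9 adipocyte markers were higher in ASC_HFS and 0 in AD_HFS. Depth sets the precision, most of all in ASC_HFS replicate 2. Alternatives were other pseudocounts (0.5 and 5), filters, scalings, a replicate block, robust moderation, limma-voom on recovered reads, log2 of recovered counts, and each library left out. Averaging of the HFS libraries was added after seeing the data.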

Additional observations from a re-analysis of the deposited data

How the results depend on the processing

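Without 1 library at a time, the ASC count of factors called higher was 0 to 4 and that called lower 0 to 2, and in AD 0 to 3 and 0 to 5. By limma-trend it was 0 in ASC whichever of the 4 libraries was left out. By limma-voom, Stat5a remained called in each case (all 4), and Stat5b was lost without ASC_HFS replicate 1 (adjusted p = 0.238) or replicate 2 (0.0846), and Klf15 without ASC_HFS replicate 1 (0.601). In AD, factors were called only without AD_C replicate 1 or 2, when the closely matching AD_HFS libraries alone give the spread. Signs changed only for log2 differences that had not passed. Over the single libraries left out, limma-trend gave -0.30 to 0.095 for Klf5, -0.037 to 0.47 for Pparg and -0.23 to 0.75 for Cebpd in ASC. It gave -0.31 to 0.27 for Cebpb, -0.67 to 0.0075 for Klf15, -0.18 to 0.0049 for Zfp423, -0.23 to 0.12 for Cebpd and -0.18 to 0.16 for Klf5 in AD, and -0.11 to 0.29 for Klf5, -0.23 to 0.28 for Pparg and -0.81 to 0.17 for Cebpd for the difference between stages. By limma-voom the sign changed in ASC for Klf5 (0.23) without ASC_HFS replicate 1 and Cebpd (-0.26) without ASC_C replicate 2. In AD it changed for Klf5 without AD_HFS replicate 1 (0.016) and Cebpb without AD_HFS replicate 2 (0.0803). It also changed for Klf15 (0.0084) and Zfp423 (0.0097) without AD_C replicate 1, and for Cebpd (0.13) and Klf5 (0.24) without AD_C replicate 2. Without AD_C replicate 1 Cebpb passed with its sign changed, at 0.27 by limma-trend and 0.28 by limma-voom. Between stages Klf5 was -0.054 by quantile normalization, and Pparg was -0.058 by limma-voom and -0.055 on log2 of recovered counts. The cause was not tested. With the HFS libraries averaged, 0 factors were called higher and 0 lower in ASC (adjusted p = 0.129, 0.169 and 0.152 for Stat5a, Stat5b and Klf15), since 1 degree of freedom is left. With all 8 libraries in 1 limma-trend fit, 3 were called higher and 2 lower in ASC, Cebpb (adjusted p = 0.0470) and Ebf1 (0.0318) being the added ones. That fit called more genes in general for ASC, 3756 of the 14018 shared genes against 2731 of 14295 in the main test. For the difference between stages, 1 factor, Stat5a, was called lower after quantile normalization, by limma-voom and on log2 of recovered counts, and 0 to 1 without single libraries and 0 were called higher. The sources do not link replicate numbers, and same-numbered libraries deviated with r = -0.12 in ASC and 0.0014 in AD. The replicate block called 2 higher and 1 lower in ASC, 0 in AD and 0 for the difference between stages. It called 661 genes in AD against 244 without it, and AD counts of all genes were 95 by upper quartile, 423 in the fit of 8 libraries, 150 by limma-voom, 112 on log2 of recovered counts and 0 with the HFS libraries averaged. The other planned settings left the ASC and AD counts of factors within 1.5 times. On the HFS diet, the log2 ratio of AD over ASC was 0.02 for Ebf1 and -0.83 for Stat5b by upper quartile. Depth limits Klf15, Klf5 and Zfp423 in ASC.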
